A study of Salmo salar with 12 samples.

Results

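The mature miR-10 and miR-196 miRNAs were followed in small RNA libraries of Atlantic salmon cells that had adhered in culture, 6 from distal intestine (AIC) and 6 from head kidney (AKC). All rows of the count table whose name was ssa-miR-10 with a letter from a to d, or ssa-miR-196 with a letter, followed by an arm and with no locus number, were taken as members. The rule found 7 of the 361 mature miRNAs listed, 4 of miR-10 and 3 of miR-196. Of these, 5 had counts and 2 (ssa-miR-10d-3p and ssa-miR-196b-3p) had 0 counts in all 12 libraries. The fish were post smolts from a commercial producer, kept in sea water and starved for 24 h, with no treatment named in the labels, and leukocytes of either organ were left to adhere for 2 days at 12°C before RNA extraction. Per the study's methods both organs were dissected from 6 fish, so the groups appear to share their fish, but the labels do not say which AIC and AKC libraries belong to the same fish and the libraries were compared as unpaired. Both groups were whole pools of adherent cells, not purified macrophages. Fold changes are AIC over AKC throughout.

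The genes of both families lie within the Hox clusters of vertebrates, miR-10 genes towards the anterior end and miR-196 genes towards the posterior end, and their mature miRNAs follow the position of a tissue along the body axis. In mouse embryos miR-196 binds and cleaves Hox transcripts, and in mammals miR-196b is also known from blood-forming progenitor cells. The head kidney is the main blood-forming organ of teleosts, and the distal intestine is the hind part of the gut. Members of a family share their seed in zebrafish and mammals and differ by a few bases outside it, so that reads of close members can be counted on more than a single row. No mature sequences are printed here because the reference used for the report holds none for these miRNAs.

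Total counts ran from 2253241 to 11804738 in AIC and from 5791813 to 19586478 in AKC, and were smaller in AIC (exact permutation test, two-sided, p = 0.0346). Together the members took 0.281% ± 0.0926 (SD, n = 6) of the counts of an AIC library, with a range from 0.172% to 0.431%. In AKC they took 0.0300% ± 0.0238 (SD, n = 6), with a range from 0.000294% to 0.0716%. Levels below are counts per 1000000 counts (CPM) after TMM scaling, a factor per library from a trimmed mean of log ratios to a reference library. The AIC factors were 0.528 to 0.9998 and the AKC factors 1.05 to 1.79. The counts are of reads after PCR and not of molecules, so the exact intervals on counts and the floors cover counting error only. The confidence intervals of fold changes come from a fit over libraries and include the spread between them.

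**Figure D1:**
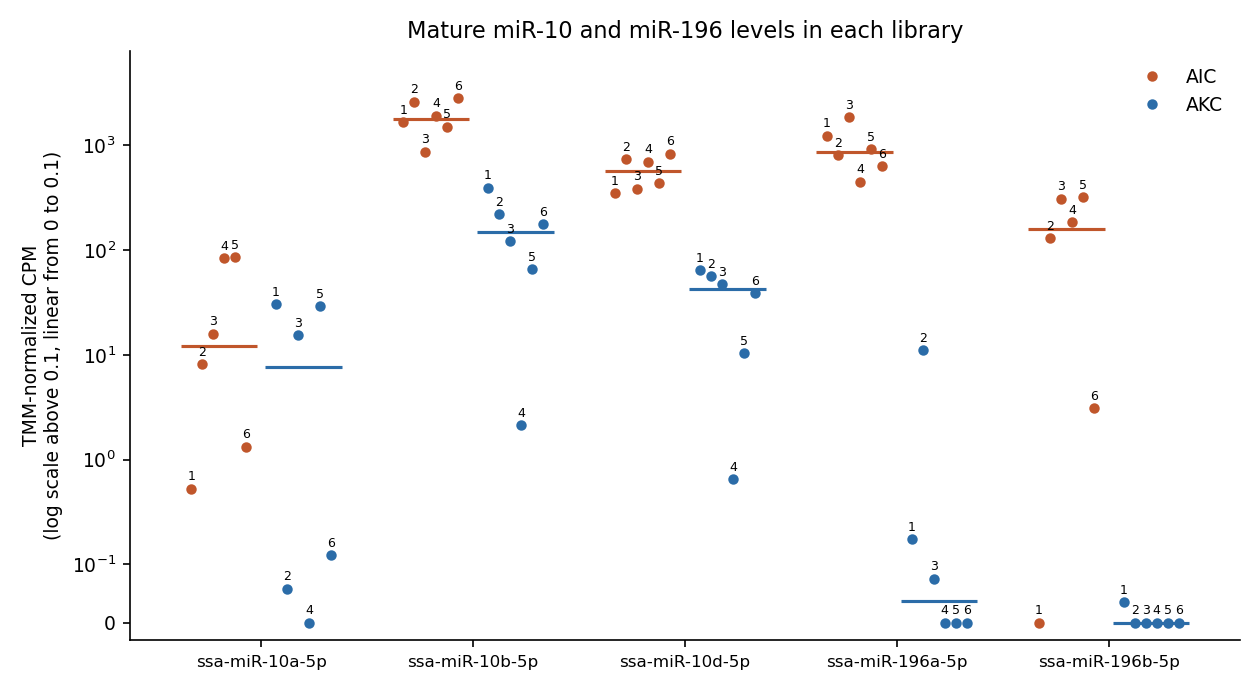
TMM-normalized CPM of the 5 members with counts (vertical axis, logarithmic above 0.1 and linear below) in the 6 AIC and 6 AKC libraries; points are libraries with their replicate number and lines are group medians. The lowest AIC library lies above the highest AKC library for ssa-miR-10b-5p (873 against 394), ssa-miR-10d-5p (349 against 64.7) and ssa-miR-196a-5p (449 against 11.1), and the groups overlap for ssa-miR-10a-5p and ssa-miR-196b-5p.

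Among the anterior members, ssa-miR-10b-5p was the most abundant in both groups. In AIC its level was 1907 ± 730 CPM (SD, n = 6), with a lowest library of 873, a median of 1796 and a highest library of 2842. In AKC it was 163 ± 137 CPM (SD, n = 6), with a lowest library of 2.13, a median of 149 and a highest library of 394. All AIC libraries lay above all AKC libraries. The SD was larger in AIC, but relative to the mean it was larger in AKC (83.9% against 38.3% in AIC). The lowest value came from AKC replicate 4, which held 13 counts of ssa-miR-10b-5p, and the highest from AKC replicate 1, with 11283.5 counts. The level was 11.7-fold higher in AIC, with a 95% confidence interval from 3.58 to 38.0, or 3.54 on the log2 scale with a standard error of 0.80. By the quasi-likelihood F test of edgeR, with p-values adjusted after Benjamini and Hochberg over all miRNAs tested, the adjusted p was 0.00287.

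ssa-miR-10d-5p, a further member of the family with its own row, followed the same order of groups at a lower level. In AIC it had 574 ± 207 CPM (SD, n = 6), from 349 to 831 with a median of 568. In AKC it had 36.4 ± 25.7 CPM (SD, n = 6), from 0.655 to 64.7 with a median of 43.0. The groups did not overlap, and AKC replicate 4 was again the lowest library, with 4 counts, just above the floor of 3 counts under which a level was not read as a signal. The difference was 15.7-fold (95% confidence interval 4.41 to 56.2), or 3.98 on the log2 scale with a standard error of 0.86 (same edgeR test, adjusted p = 0.00216).

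ssa-miR-10a-5p was scarcer and lay above the floor in only some libraries of either group. In AIC it had 1 count in replicate 1, 3 counts in replicate 6 and between 34 and 606 counts in the other 4 libraries. In AKC it had 1, 0 and 2 counts in replicates 2, 4 and 6, and up to 879 counts in the other 3 libraries. Thus 4 AIC and 3 AKC libraries lay above 3 counts, and the others were at or below it although some were among the deepest libraries. Its level in AIC was 32.7 ± 40.9 CPM (SD, n = 6), with a lowest library of 0.530, a median of 12.1 and a highest library of 85.8. In AKC it was 12.5 ± 14.7 CPM (SD, n = 6), with a lowest library at 0, a median of 7.73 and a highest library of 30.7. The groups overlapped, and the log2 fold change of 1.38 with a standard error of 1.71 was not larger than the spread between libraries (same edgeR test, adjusted p = 0.632). Its 95% confidence interval ran from -2.28 to 5.04 on the log2 scale and holds the fold changes of both other miR-10 members, so the data do not show that ssa-miR-10a-5p differed between the groups otherwise than they did. With the mapped reads of each library in place of TMM scaling the sign turned, to -0.15 (adjusted p = 0.954 from edgeR).

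Among the posterior members, ssa-miR-196a-5p was abundant in every AIC library and nearly missing from AKC. It had 985 ± 502 CPM (SD, n = 6) in AIC, from 449 to 1854 with a median of 868. AIC replicate 3 held the highest level, with 11737 counts. In AKC the counts of replicates 1 to 6 were 5, 190, 1, 0, 0 and 0, so that 2 libraries lay above 3 counts and AKC replicate 2, at 11.1 CPM, stood apart from the rest. The mean over AKC, 1.89 ± 4.51 CPM (SD, n = 6), therefore rested on that library. On the log2 scale the difference was 9.005 with a standard error of 1.86 and a 95% confidence interval from 5.03 to 12.98 (same edgeR test, adjusted p = 0.00193). Without AKC replicate 2 the log2 fold change was 13.85 when the tested miRNAs were kept. In that case the remaining AKC libraries held at most 5 counts, so the size of the difference against AKC is set by a few reads while its direction held in all fits.

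ssa-miR-196b-5p was not detected above the floor in AKC, where replicate 1 held 1 count and the other 5 libraries held 0. A count of 0 allows up to 3 counts, which is between 0.105 and 0.491 CPM at the depth of the AKC libraries. In AIC its level was 158.2 ± 141.4 CPM (SD, n = 6), with a lowest library at 0, a median of 158 and a highest library of 320. The AIC counts of replicates 1 to 6 were 0, 541, 1963, 1331, 676 and 7. Hence AIC replicate 1 could not be told apart from AKC, and the groups overlapped at 0. Pooled over libraries, 4518 counts in AIC stood against 1 count in AKC. Each divided by the summed TMM-scaled depth of its group, they gave a ratio of 18056, with an exact 95% interval from 3239 to 713314. This interval covers counting error only, and the ratio depends on the scaling. The mean of AIC was 681 times the mean floor of 3 counts per AKC library. This ratio to the floor was 1102 without AKC replicate 4, whose floor is the highest, and 145.2 after all libraries had been thinned to the smallest. Too few libraries held counts of ssa-miR-196b-5p for the low-count filter, so the fit above gives it no p. With no filter it was called by edgeR (adjusted p = 5.31e-06) and by DESeq2 (adjusted p = 1.41e-13). With the filter it was called by edgeR when any AKC library or AIC replicate 1 was left out, which let it pass. It then passed through the AIC libraries, where it was high, so these calls lend no weight of their own.

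Of the 4 members tested, 3 were called, all of them higher in AIC, where a call needs an adjusted p under 0.05 and a difference of 1 or more on the log2 scale. Over all 76 miRNAs tested, 26.3% were called in either direction and 17.1% were called higher in AIC. All AIC libraries lay above all AKC libraries for 3 of the 4 tested members and for 15.8% of the 76. With no filter, 4 of 5 members were called higher by edgeR against 17.8% of 180 miRNAs, and 4 of 5 by DESeq2 against 25.4% of the 134 for which it gave an adjusted p. The filter was passed by ssa-miR-196a-5p through the AIC libraries, so these counts describe the members and lend no weight of their own. The median log2 fold change was 3.76 over the tested members and 0.09 over all miRNAs tested. Ranked by log2 fold change, ssa-miR-196a-5p was at 5, ssa-miR-10d-5p at 7, ssa-miR-10b-5p at 10 and ssa-miR-10a-5p at 18 of 76. With total counts as the only scaling the median over all tested miRNAs moved to -0.65, and ssa-miR-10b-5p, ssa-miR-10d-5p and ssa-miR-196a-5p were still called, at 2.67, 3.15 and 8.27. In bulk samples, fewer cells of a type and less RNA per cell cannot be told apart.

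**Figure D2:**
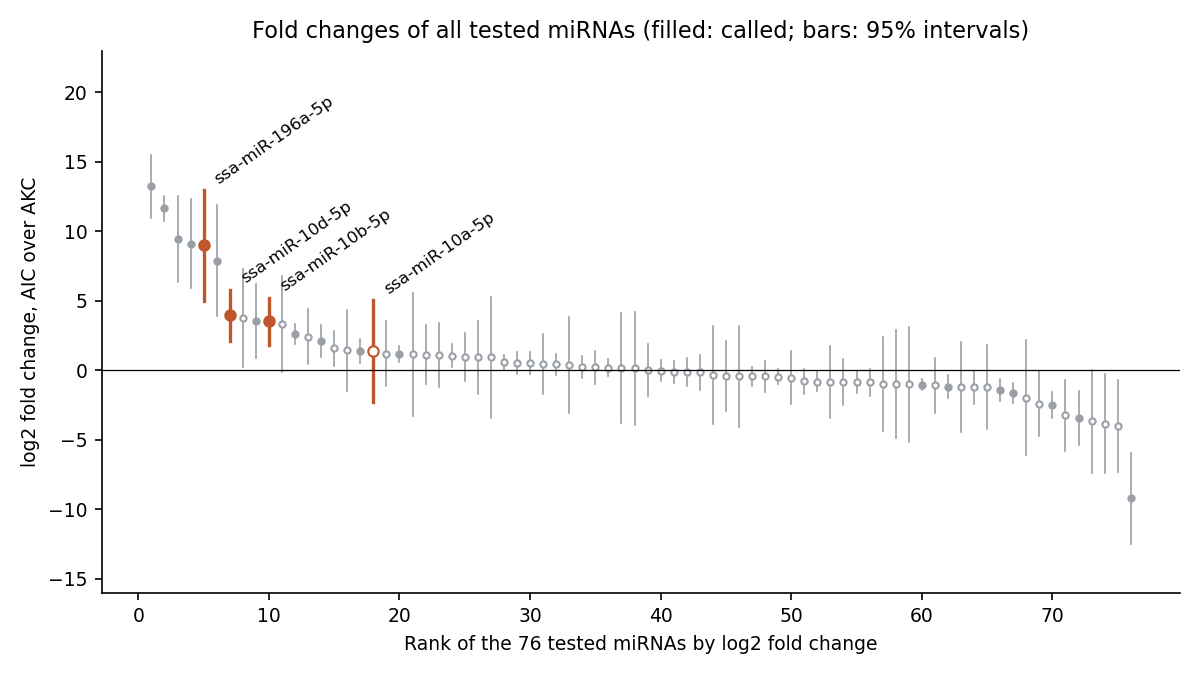
The log2 fold change of AIC over AKC (vertical axis) for the 76 tested miRNAs in order of rank (horizontal axis), with 95% confidence intervals as bars; filled points were called and members are in colour. ssa-miR-196a-5p (9.005), ssa-miR-10d-5p (3.98) and ssa-miR-10b-5p (3.54) are filled, and the interval of ssa-miR-10a-5p (-2.28 to 5.04) spans 0.

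The order of the levels differed between the groups. In AIC the mean levels ran from ssa-miR-10b-5p through ssa-miR-196a-5p, ssa-miR-10d-5p and ssa-miR-196b-5p to ssa-miR-10a-5p. Neighbours in this order overlapped between libraries except for ssa-miR-10d-5p and ssa-miR-196b-5p, where the lowest library of the former (349 CPM) lay above the highest of the latter (320 CPM). ssa-miR-10b-5p was above ssa-miR-196a-5p in 5 of the 6 AIC libraries, AIC replicate 3 being the exception. In AKC the miR-10 members came first, with ssa-miR-10b-5p above ssa-miR-10d-5p in 6 of 6 libraries, and the miR-196 members came last. The ranges of all neighbours overlapped in AKC. These orders are of read levels, and a difference between miRNAs in how well they enter a library is not corrected.

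Ratios within a library do not depend on the scaling, and the miR-10 members were set against each other in this way. ssa-miR-10b-5p exceeded ssa-miR-10d-5p by 4.77, 3.55, 2.26, 2.75, 3.48 and 3.42 times in AIC replicates 1 to 6. In AKC replicates 1 to 6 the ratios were 6.10, 3.898, 2.55, 3.25, 6.35 and 4.56. The ratio thus stayed between 2.26 and 6.35 in all 12 libraries, AKC replicate 4 with only 13 and 4 counts included. The level of ssa-miR-10b-5p itself differed 185-fold between the lowest and the highest AKC library. That range rests on AKC replicate 4 (2.13 CPM), since the other AKC libraries ran from 66.0 to 394 CPM. On the log2 scale the ratio averaged 1.71 ± 0.37 over the AIC libraries and 2.06 ± 0.53 over those of AKC (SD, n = 6 each). A minimum of 50 summed counts in every library had been set for a test of such ratios, and AKC replicate 4 failed it for each of the 3 miR-10 pairs. Without that library, a choice made after the data were seen, the difference of -0.44 between AIC and AKC did not exceed the variation among libraries (exact permutation test over 462 splits of 6 against 5, two-sided, p = 0.136, and 0.409 after Benjamini-Hochberg adjustment over 3 pairs).

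ssa-miR-10a-5p kept no such ratio, and ssa-miR-10b-5p exceeded it by between 17.6 and 3143 times in AIC and between 2.28 and 3781 times in the AKC libraries other than replicate 4, where it was at 0. Its share of the summed miR-10 5p counts was 0.0263% in AIC replicate 1 (exact binomial 95% interval 0.000666% to 0.146%) and 4.22% in AIC replicate 5 (3.63% to 4.86%). In AKC replicate 4 the share was 0% of only 17 counts (0% to 19.5%). In the other AKC libraries it ran from 0.0210% in replicate 2 (0.000533% to 0.117%) to 27.5% in replicate 5 (25.3% to 29.9%). The share thus varied widely among libraries of the same group, and the intervals cover the counting of reads only, not the spread from PCR or between samples. Against ssa-miR-10b-5p and ssa-miR-10d-5p its log2 ratio did not differ between the groups beyond the spread between libraries (exact permutation tests as above, p = 0.5 and 0.396, or 0.5 for both after Benjamini-Hochberg adjustment). The count of 1 beside 3143 counts of ssa-miR-10b-5p in AIC replicate 1 means that at most 1 read of ssa-miR-10b-5p was counted on ssa-miR-10a-5p there. Whether ssa-miR-10b-5p and ssa-miR-10d-5p share reads was not tested.

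**Figure D3:**
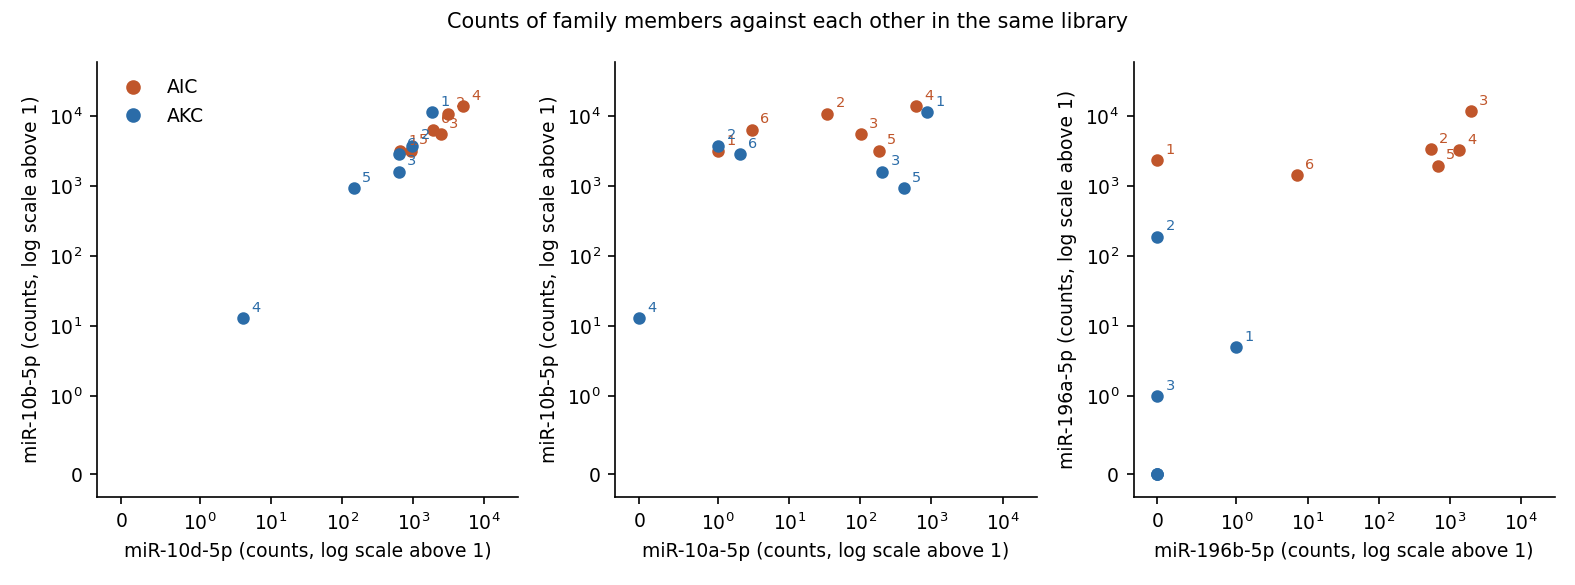
Counts of ssa-miR-10b-5p against ssa-miR-10d-5p and ssa-miR-10a-5p, and of ssa-miR-196a-5p against ssa-miR-196b-5p, in the same library (points with replicate numbers; all axes in counts, logarithmic above 1). ssa-miR-10b-5p and ssa-miR-10d-5p lie along a line from 13 and 4 counts in AKC replicate 4 upwards, whereas ssa-miR-10a-5p is at 3 counts or fewer in AIC replicates 1 and 6 and AKC replicates 2, 4 and 6.

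The miR-196 members were compared within AIC alone, since AKC held too few reads. ssa-miR-196a-5p exceeded ssa-miR-196b-5p by 6.20, 5.98, 2.43 and 2.89 times in AIC replicates 2 to 5. In AIC replicate 6 the ratio was 205.1, with 1436 against 7 counts, and in AIC replicate 1 there were 2333 against 0 counts. The share of ssa-miR-196b-5p was thus 29.2% in AIC replicate 4 (exact binomial 95% interval 27.8% to 30.5%) and 0.485% in AIC replicate 6 (0.195% to 0.997%). AIC replicates 1 and 6 were also those in which ssa-miR-10a-5p was at or below 3 counts.

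**Figure D4:**
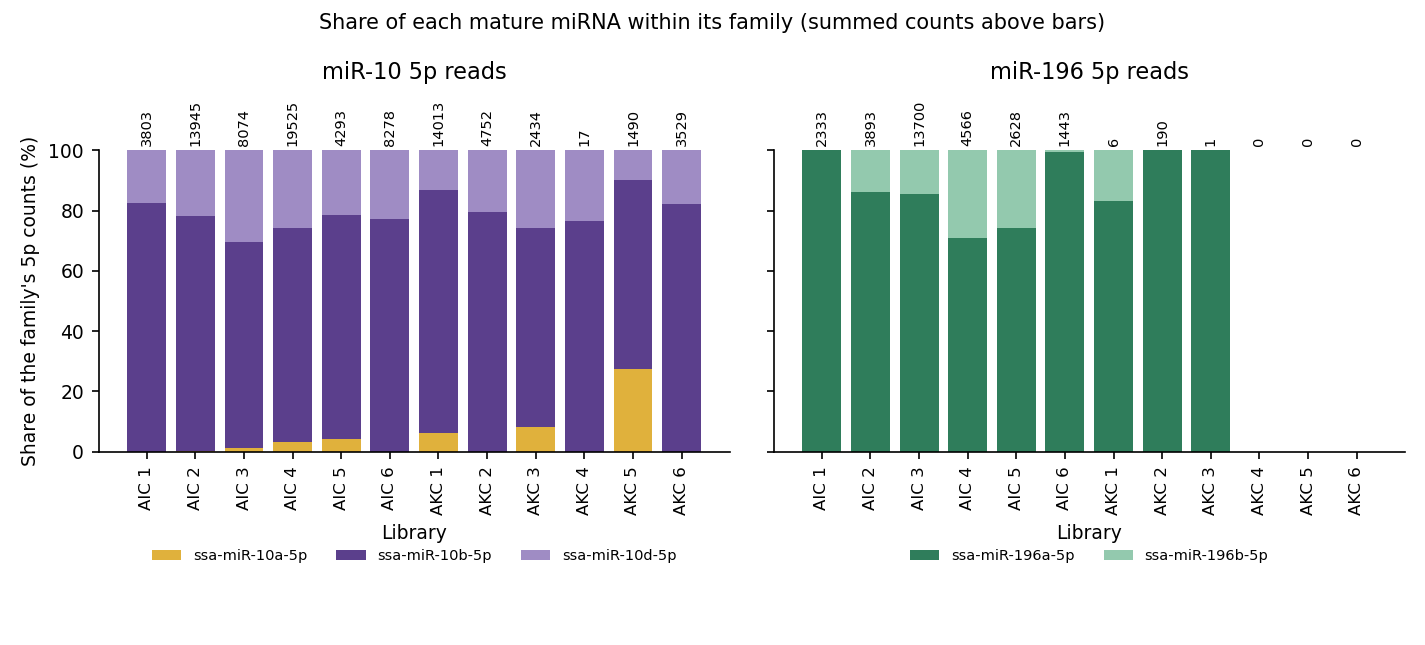
Share of each mature miRNA in the summed 5p counts of its family (vertical axis, percent) for each library, with the summed counts above the bars. ssa-miR-196b-5p is absent or nearly so in AIC replicates 1 and 6 (0% and 0.485%), and ssa-miR-10a-5p ranges up to 27.5% in AKC replicate 5; AKC replicates 4 to 6 held 0 counts of miR-196 and have no bar.

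Some, but not all, of the libraries in which members were at or under the floor held few miRNAs in general. AIC replicates 1 and 6 had 62 and 67 miRNAs above 3 counts, and the other AIC libraries had from 72 to 108. After thinning to the total of the smallest library (AIC replicate 6), 2253241 counts, the numbers were 62 and 67 against 71 to 106. Thinning equalised the total counts and not the TMM-scaled depth. AIC replicate 5, with 72 miRNAs above 3 counts (71 after thinning), held the highest ssa-miR-10a-5p and ssa-miR-196b-5p levels of AIC (85.8 and 320 CPM). In AIC replicate 1, 10 of the 76 tested miRNAs had at most 3 counts although their median over the other AIC libraries was at least 100. The same held for 8 miRNAs in AIC replicate 6 and for at most 4 in the others. In both libraries ssa-miR-10a-5p was among them, with ssa-miR-181b-5p, ssa-miR-24b-3p and ssa-miR-99-5p. The part that this plays in the low counts of ssa-miR-10a-5p and ssa-miR-196b-5p was not tested. Without AIC replicates 1 and 6, a choice made after the data were seen, the ratio of ssa-miR-196b-5p to the floor was 1018 and ssa-miR-10a-5p was still not called (log2 fold change 1.95, adjusted p = 0.412 from edgeR). AKC replicate 4 had 9 such miRNAs and 69 above 3 counts (63 after thinning), the fewest of AKC. AKC replicate 2, with 1 count of ssa-miR-10a-5p, had 99 miRNAs above 3 counts after thinning and no other miRNA missing in this way, and AKC replicate 6 had 81 after thinning and 3 missing. The low ssa-miR-10b-5p and ssa-miR-10d-5p of AKC replicate 4 did not decide their calls, since without it they were called at 3.28 and 3.72.

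The miRNAs with profiles most like the members were ranked by the mean absolute difference of centred log2 CPM over the 12 libraries, among the 75 others tested. For ssa-miR-10b-5p this was ssa-miR-10d-5p, at 0.41 log2 units against a median of 2.64 over all others, followed by ssa-miR-1338-5p at 1.14 and ssa-miR-100a-5p at 1.15. For ssa-miR-10d-5p it was ssa-miR-10b-5p, then ssa-miR-1338-5p at 1.11 and ssa-miR-125a-5p at 1.20. For ssa-miR-196a-5p the nearest were ssa-miR-192b-5p at 0.73, ssa-miR-194a-5p at 1.19 and ssa-miR-192a-5p at 1.34, against a median of 4.64. These are miRNAs of the gut epithelium in vertebrates. Profiles were centred over both groups, so the distance takes in the difference between the groups, and likeness within a group was not tested. The log2 fold changes of these neighbours were 13.24, 7.90 and 9.49, among the largest of all tested miRNAs. For ssa-miR-10a-5p the nearest were ssa-miR-30e-5p at 1.29, ssa-miR-30c-5p at 1.89 and ssa-miR-24b-3p at 1.95, against a median of 2.46.

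The miR-99 and miR-100 genes, relatives of miR-10 by sequence outside the Hox clusters, gave a mixed picture. Of the 6 rows listed 3 had counts and 2 were tested, and ssa-miR-100a-5p was called higher in AIC. Its level was 3617 ± 1897 CPM in the AIC libraries and 839 ± 734 CPM in those of AKC (SD over 6 libraries each), and the groups overlapped. On the log2 scale it was 2.11 higher in AIC (edgeR, adjusted p = 0.00766). ssa-miR-99-5p was not called, at -1.20 (adjusted p = 0.632). Among the 12 tested of 15 let-7 and miR-125 rows, whose genes often lie beside miR-99 and miR-100, ssa-miR-125a-5p (2.61) and ssa-let-7a-5p (1.19) were called higher and none lower. The groups overlapped for ssa-let-7a-5p, whose value lay near the threshold of 1, and not for ssa-miR-125a-5p. For both lists the calls are read against the 17.1% of all tested miRNAs called higher, to which the 2 of 12 are close. The median log2 fold change was 0.45 over the former list and 0.35 over the latter, against 0.09 over all tested.

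Of the marker lists of other cell types, the sum of the epithelial list separated the groups. After TMM scaling the sums of the blood and stromal lists overlapped between them, and for the blood list this depended on the scaling. Epithelial and enteroendocrine miRNAs (miR-192, miR-194, miR-200, miR-203, miR-205, miR-375 and miR-429) had 32 rows, of which 18 had counts and 5 were tested, all 5 called higher in AIC, against 17.1% of all tested. Except for ssa-miR-375-3p, those tested had mean AKC levels from 0.166 to 7.02 CPM and passed the filter through the AIC libraries. The count of calls therefore lends no weight of its own. The summed level of the list ran from 249097 to 477800 CPM in AIC, most of it ssa-miR-375-3p and then ssa-miR-200a-3p, and from 94.7 to 345 CPM in AKC. Of its defining miRNAs, miR-203 went the other way, at 0 in all AIC libraries and up to 73.4 CPM in AKC. ssa-miR-205a-5p had similar means, 16.3 ± 26.1 CPM in AIC and 14.5 ± 17.6 CPM in AKC (SD, n = 6 each). Blood cell miRNAs had 14 rows, of which 10 had counts and 6 were tested, with 2 called lower in AIC (ssa-miR-155-5p at -3.43 and ssa-miR-181c-5p at -1.61) and none higher, against 9.21% of all tested miRNAs called lower. Their summed level after TMM scaling ran from 14416 to 36735 CPM in AIC and from 27136 to 50487 CPM in AKC. As a share of total counts the sum did not overlap, with all AIC libraries below all AKC libraries. It was led by ssa-miR-181a-5p and ssa-miR-150-5p. These leading miRNAs were not called, at -0.81 and -0.43 on the log2 scale (edgeR, adjusted p = 0.0696 and 0.623). Within this list miR-142, a marker of leukocytes, was at 0 in all AKC libraries and reached 38.1 CPM in AIC. That value came from a single library, as the AIC mean of ssa-miR-142a-5p was 6.42 ± 15.5 CPM (SD, n = 6). Only 5p rows were listed for miR-142, so its 3p arm was not followed. miR-144, a marker of red cells, was at 0 in all libraries. Stromal, muscle and endothelial miRNAs had 19 rows, of which 8 had counts and none was tested, and they summed to at most 190 CPM in AIC and 121 CPM in AKC, led by ssa-miR-126-3p and ssa-miR-218-5p in AIC and by ssa-miR-199a-5p, at 0 in AIC, in AKC. The ssa-miR-126-3p level in AIC came from AIC replicate 6 alone (190 CPM). Among the stromal rows, those of miR-1, miR-145 and miR-214 were at 0 throughout, but only 5p rows were listed for these, so their 3p arms were not followed.

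The part of these cells in the difference of the miR-10 and miR-196 members between the groups was not tested, and in this design cell makeup and organ cannot be told apart. Within AIC the summed epithelial level after TMM scaling was lowest in replicate 3 (249097 CPM), where ssa-miR-196a-5p was highest (1854 CPM). It was highest in replicate 4 (477800 CPM), where ssa-miR-196a-5p was lowest (449 CPM). The sum was mostly ssa-miR-375-3p, and its order depends on the TMM factors (0.528 in AIC replicate 1 and 0.943 in AIC replicate 3). As a share of total counts it was lowest in AIC replicate 1, not replicate 3. As a ratio within a library, which the scaling does not touch, ssa-miR-196a-5p came to between 0.0940 (replicate 4) and 0.744 (replicate 3) counts per 100 epithelial counts in AIC. ssa-miR-10b-5p was lowest in AIC replicate 3 (873 CPM), so the anterior and posterior members did not vary in step between AIC libraries.

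**Figure D5:**
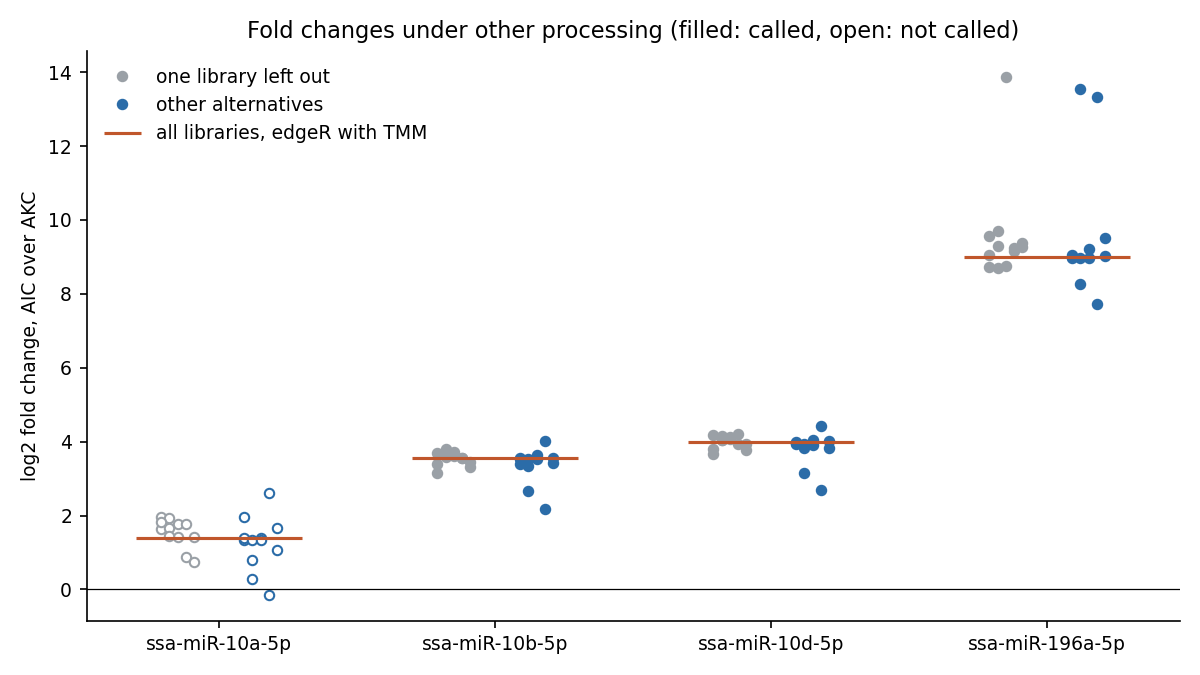
The log2 fold change of AIC over AKC (vertical axis) of the 4 tested members with all libraries (line), with each library left out in turn (grey) and under the other alternatives (blue); filled points were called. ssa-miR-10b-5p, ssa-miR-10d-5p and ssa-miR-196a-5p were called in all fits shown, and ssa-miR-10a-5p in none of them; the fits of family sums are not shown.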

How the data were processed

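Small RNA libraries of AIC and AKC (6 each) were analysed. Per the study's methods, the authors trimmed adapters with Cutadapt (1.12 in the submitters' processing notes), filtered reads by quality, mapped them to ICSASG_v2 and counted them on salmon miRNAs of miRBase with miRDeep2. What the authors deposited are estimated counts for each mature miRNA without scaling. Fractions occur in 12 of 361 rows, among them 3 values of ssa-miR-10b-5p, and were rounded before testing. The libraries of a group are described as biological replicates; the labels do not name the fish behind each, so p-values measure the spread between these libraries.

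With R 4.3.3, edgeR 4.0.16 (filterByExpr at a minimum count of 10, TMM, quasi-likelihood test) compared AIC with AKC over 76 miRNAs; standard errors and 95% intervals were derived from the F statistic. DESeq2 1.42.0 was an alternative, and so were other scalings, filters, thinning, family sums, a replicate block and leaving out libraries. Profiles were compared as log2 of CPM plus 1. The fit was also run on simulated counts with smaller differences than that of ssa-miR-196a-5p, and no result given here rests on that run. Within-library ratios used a pseudocount of 0.5. All members and the 3 miRNAs most like each tested member are named, with called or most abundant miRNAs of the relative and marker lists. The members and lists were chosen with earlier results of these data known. No 2 libraries held identical counts. Figures used Matplotlib 3.10.9.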

Additional observations from a re-analysis of the deposited data

Results flagged for a closer look

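A library far from the other 5 of its group was found in 2 of 10 groups examined (5 members in AIC and in AKC); chance gives about 1 in 20 for normally distributed values, a rate that cannot be applied to groups mostly at 0 counts such as these 2. For ssa-miR-196a-5p, AKC replicate 2 held 11.1 CPM (190 counts), against at most 5 counts in the other AKC libraries, and its cause was not tested. For ssa-miR-196b-5p, AKC replicate 1 held 0.0350 CPM, which is 1 count beside 0 in the others and lies under the floor of 3 counts.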

How the results depend on the processing

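ssa-miR-10b-5p, ssa-miR-10d-5p and ssa-miR-196a-5p stayed higher in AIC and called under 13 alternatives beside leaving out each library in turn (2 of them without a pair of libraries and 1 on family sums), from 2.18 to 4.02, 2.70 to 4.41 and 7.72 to 13.56 on the log2 scale, the last without AKC replicates 2 and 4. The lowest values came from scaling by each library's mapped reads, taken from the study's supplementary table. Of the alternatives, the filter of at least 10 counts in 6 libraries kept the same 76 miRNAs and repeated the main fit. The family sum gave ssa-miR-10b-5p and ssa-miR-10d-5p the same value, so it is no separate check of ssa-miR-10d-5p. ssa-miR-10a-5p was not called except through its family sum, which is mostly ssa-miR-10b-5p (3.45), and turned to -0.15 with the mapped reads. The number of called miRNAs, 20, was 33 with the mapped reads (9 higher in AIC and 24 lower), 41 without a filter, 33 with DESeq2 on the same miRNAs and 57 with DESeq2 without a filter. It split into 9 higher and 20 lower with total counts alone, against 13 higher and 7 lower with TMM.

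Leaving out each library in turn gave 17 to 23 called miRNAs, and log2 fold changes of 0.73 to 1.95 for ssa-miR-10a-5p, 3.16 to 3.93 for ssa-miR-10b-5p, 3.66 to 4.20 for ssa-miR-10d-5p and 8.69 to 13.88 for ssa-miR-196a-5p. The calls of these 4 members did not change. When AIC replicate 1 or any of the AKC libraries was left out, ssa-miR-196b-5p passed the filter through the AIC libraries and was called. Such a call lends no weight of its own. The ratio of ssa-miR-196b-5p to the floor, 681, ran from 535 to 1102, and was 415 with total counts and 337 with the mapped reads. The differences in log2 ratio between the miR-10 pairs kept their sign. A replicate block in the fit gave 22 called miRNAs, and ssa-miR-196a-5p was at 13.32, its call unchanged like those of the other members. Same-numbered libraries did not deviate together, with correlations from -0.062 to 0.109, and 0 of 6 AIC libraries correlated best with their own number. The few counts of ssa-miR-196a-5p and ssa-miR-196b-5p in AKC limit how closely the size of their differences is known. Total counts were larger in AKC than in AIC.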
